A study of Mus musculus with 6 samples.

Results

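The ribosome makes every protein of the cell, and its large and small subunits are each built from ribosomal RNA and a set of ribosomal proteins. Cytosolic ribosomal protein genes are transcribed at high rates in nearly all cells, from short promoters that mostly lack a TATA box and that start transcription within a tract of pyrimidines, the terminal oligopyrimidine (TOP) motif of their mRNAs. Accessibility at these promoters was described here in smooth muscle cells of the mouse oviduct, with and without Pbrm1, which encodes BAF180, a subunit of the PBAF form of the SWI/SNF complex that moves nucleosomes. Members were the protein-coding genes of GENCODE M21 whose symbol begins with Rpl or Rps followed by a digit, a or p, without the Rps6k kinases and without symbols that hold -ps. There were 86 such genes, 52 for the large subunit (Rpl) and 34 for the small subunit (Rps), and 131 of the 66679 accessible regions lay within 1 kb of one of their transcription starts.

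ATAC-seq measures open chromatin by where the Tn5 transposase cuts DNA. Primary oviductal smooth muscle cells came from mice of 8 to 12 weeks on day 2 of pregnancy, and each library was made from 50000 cells after a few hours in a dish. There were 3 libraries labelled WT and 3 labelled Pbrm1 cKO. In the study's mice, controls carry floxed Pbrm1 (Pbrm1 fl/fl), and the deletion uses a Cre expressed from the progesterone receptor gene, so that it reaches cells that express this receptor. The peak lists carry no value that checks the deletion. All 5 smooth muscle markers (Acta2, Myh11, Cnn1, Tagln and Des) had a promoter region, with a median percentile of 64.7. A region was also present for 1 of 5 epithelial markers (Foxj1), 2 of 3 immune, 3 of 3 endothelial and 3 of 3 fibroblast markers, and Foxj1 stood at percentile 93.4. The part of other cell types in the values was not tested.

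Within a library, regions were ordered by their strongest peak entry, as measured by −log10 p. Its percentile is the share of the 66679 regions ranked below it, and its rank score is log2(66679 / rank), so a score that is higher by 1 belongs to a rank number 2 times smaller. Ranks place a region among the others of its own library. A change shared by all regions cannot be seen in them. The numbers of tags over the member summits followed from the fold and p that MACS2 gave. They came out whole within 0.05 for 100% of 783 values and ranged from 9 to 195. Over the highest region of each gene the median number of tags was 99.5 in WT library 1, 84 in WT library 2 and 58.5 in WT library 3, while the Pbrm1 cKO libraries had medians of 105, 98 and 101.5. WT library 3 was thus the shallowest at these promoters.

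Promoter sequences show features of the members that the choice by symbol did not use. They were taken from RefSeq (GRCm38.p6, 250 bases before to 50 after a start), where 66 of the 86 members were matched with 1 start each, the one nearest to the start of the principal GENCODE transcript. The starts of the 2 annotations lay within 50 bp of each other at 48 of the 66 members and over 100 bp apart at 11, up to 575 bp at Rps25. Among the genes whose sequences are shown, the distance was 301 bp at Rps10, 281 at Rplp2, 221 at Rps19, 153 at Rpl12, 81 at Rpl15 and 66 at Rps12, so that these windows lie away from the principal GENCODE start. The first set below gives the 30 bases around the start, read 5′ to 3′ along the gene with 15 bases on each side. Capitals mark the longest run of C and T that covers a base within 5 of the start. The first 5 genes are shown because they have a long run, and the last 4 because they stand out by level or by difference and have a short one.
Rpl7a (chr2:26910792-26910821, plus strand): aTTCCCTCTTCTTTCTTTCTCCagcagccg
Rpl15 (chr14:18270972-18271001, minus strand): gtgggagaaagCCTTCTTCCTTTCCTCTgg
Rps10 (chr17:27635230-27635259, minus strand): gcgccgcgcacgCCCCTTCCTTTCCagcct
Rpl19 (chr11:98026909-98026938, plus strand): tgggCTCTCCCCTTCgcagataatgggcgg
Rplp2 (chr7:141447636-141447665, plus strand): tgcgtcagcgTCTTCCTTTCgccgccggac
Rps12 (chr10:23787195-23787224, minus strand): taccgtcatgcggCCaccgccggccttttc
Rpl37 (chr15:5116598-5116627, plus strand): agtttcctgggcggaagCTTatccacagga
Rpl9 (chr5:65391417-65391446, minus strand): acgcagggCCCTgacggattacaagaacgt
Rps4x (chrX:102189377-102189406, minus strand): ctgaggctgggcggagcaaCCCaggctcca

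The run was 21 bases long at Rpl7a, 17 at Rpl15, 13 at Rps10, 11 at Rpl19 and 10 at Rplp2, against 2 at Rps12, 3 at Rpl37, 4 at Rpl9 and 3 at Rps4x. A run of at least 8 bases was present at 22 of the 66 members (33.3%), at 9.68% of the 10692 protein-coding genes of the table with an accessible promoter region and at 9.59% of all 16522 genes of the table. Runs of at least 10 bases were present at 25.8%, 5.33% and 4.91% in the same order. The best promoter regions of the 22 members with a run of at least 8 had a median percentile of 93.8, against 93.1 for the 40 others with a region. A high rank was thus found with and without a run at the annotated start.

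Motifs were searched on both strands over the whole 300-base windows, and each was counted by itself, so that overlapping matches counted for both. The letters TCGCGAG, which overlap their own reverse complement, were found at 14 of 66 members (21.2%), against 3.96% of the genes with a region and 2.77% of all genes. CCGGAAG, the core bound by ETS factors such as GABPA, was found at 25 members (37.9%), against 17.6% and 12.4%. ATGGCGG, the core of the YY1 motif, was found at 10 members (15.2%), against 8.16% and 5.63%. The GC box GGGCGG was found at 40 members (60.6%), below the 65.5% of genes with a region and above the 48.6% of all genes. ATTGG, the CCAAT box, was found at 20 members (30.3%, against 38.4% and 38.6%), GCATGCG, part of the NRF1 motif, at 5 (7.58%, against 6.56% and 4.71%), the E-box CACGTG at 5 (7.58%, against 10.1% and 8.08%) and TATAAA at 6 (9.09%, against 6.79% and 12.9%). These are matches of letters, and binding was not measured. The members' windows had a median GC content of 57.3%, below the 61.3% of genes with a region, while their median ratio of observed to expected CpG was 0.865 against 0.762.

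The 120 bases just before the start are shown for 4 members that carry some of these motifs, with every match in capitals. They are also shown for Rps12, which had none of them there.
Rps19 (chr7:24884472-24884591, plus strand, GC box and TCGCGAG): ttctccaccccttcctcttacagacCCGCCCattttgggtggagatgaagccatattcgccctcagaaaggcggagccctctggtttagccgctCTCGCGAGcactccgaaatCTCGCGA
Rpl12 (chr2:32961592-32961711, plus strand, GC box and TCGCGAG): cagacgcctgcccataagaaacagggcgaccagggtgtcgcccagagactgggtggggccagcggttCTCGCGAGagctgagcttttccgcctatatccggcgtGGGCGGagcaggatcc
Rpl37 (chr15:5116493-5116612, plus strand, GC box, ETS core and CCAAT box): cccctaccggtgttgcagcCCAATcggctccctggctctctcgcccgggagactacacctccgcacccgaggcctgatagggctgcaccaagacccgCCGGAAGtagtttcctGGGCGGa
Rpl34 (chr3:130730338-130730457, minus strand, GC box and YY1 core): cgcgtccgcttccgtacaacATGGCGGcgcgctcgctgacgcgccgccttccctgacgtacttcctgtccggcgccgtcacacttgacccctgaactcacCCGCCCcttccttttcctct
Rps12 (chr10:23787210-23787329, minus strand): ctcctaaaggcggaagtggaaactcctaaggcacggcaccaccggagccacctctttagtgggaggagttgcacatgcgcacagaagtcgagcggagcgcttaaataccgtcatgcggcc

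Nearly all ribosomal protein genes had an accessible promoter. A region was present for 82 of the 86 members (95.4%), against 13768 of 21951 protein-coding genes (62.7%). All 77 genes for the standard ribosomal proteins had one. The 4 without a region were paralogs or retrogene copies, namely Rpl10l and Rpl39l, known from testis, Rpl3l, known from striated muscle, and Rps27rt. Of the 5 other paralogs or non-ribosomal members, Rpl7l1, Rpl22l1, Rpl36al and Rps27l had a region, as did Rps19bp1, which encodes a protein that binds RPS19. The processed pseudogenes named -ps differed from the members, as 16 of 300 (5.33%) had a region within 1 kb of a start, at 13 of which the region was no promoter of a protein-coding gene.

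Regions at these promoters were mostly held by both genotypes. The conservative lists of WT and Pbrm1 cKO both held 117 of the 131 member regions (89.3%), against 69.2% of all regions and 82.9% of the regions at protein-coding promoters. The highest region of each of the 82 genes was in both lists and had an entry in all 6 libraries. The other 14 regions were in 1 list, and none was the highest of its gene. The 7 in the WT list alone lay near Rpl7, Rpl18, Rpl21, Rpl34, Rps20, Rps24 and Rps27, and the 7 in the Pbrm1 cKO list alone near Rpl3, Rpl7a, Rpl9, Rpl19, Rps7, Rps10 and Rps25. A missing entry was found for 3 regions, in 1 library each, at Rpl18, Rpl21 and Rpl34. There is 1 list per genotype, filtered for entries that recur between its replicates, so a difference in membership between genotypes has no replicate comparison.

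A single region served 44 genes, while 28 had 2, 9 had 3 and Rpl18 had 4. The highest region of a gene was 786 bp wide in the median (222 to 1584), close to the 846 bp of all protein-coding genes, and the other member regions were 236 bp wide. It held an annotated start at 81 of 82 genes, Rpl4 being the exception. In 6 of 786 cases a library's best entry spanned 2 regions of 1 gene, so that a lesser region took the value of the main peak. Rpl26, Rpl36al and Rps24 were among these.

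The summit of the highest region lay close to the start. Its median position was −31 bp, upstream of the start, for the members and for all protein-coding genes, but the members were less spread, with 71 of 82 (86.6%) within 100 bp of a start against 63% of all genes. The summit was upstream at 64 members (78%, against 69.3%). The farthest were Rpl7l1 and Rpl4, at −487.5 and −487 bp (upstream), and Rps25, at 209 bp (downstream). Of the members, 16 share a promoter with a protein-coding gene that starts within 1 kb upstream on the other strand, such as Rps28 with Ndufa7 at 10 bp, Rps25 with Trappc4 at 33 bp and Rpl9 with Lias at 53 bp. A region there belongs to both genes. The median percentile was 93.0 for these 16 and 93.3 for the others.

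**Figure D1:**
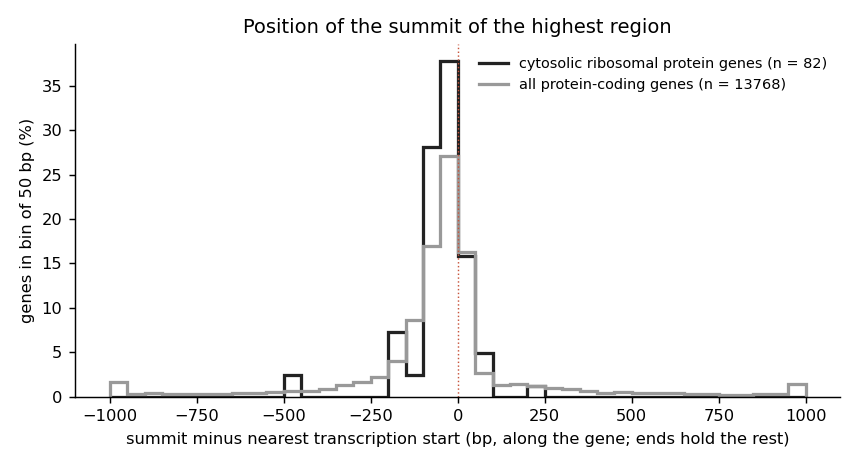
The plot shows the distance in bp, along the gene, from the nearest transcription start to the summit of each gene's highest region (median of 6 libraries), as the percentage of genes in bins of 50 bp, for 82 ribosomal protein genes and 13768 protein-coding genes. Of the ribosomal protein genes, 86.6% lie within 100 bp of the start, against 63% of all genes.

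Among the accessible regions, those of ribosomal protein genes ranked high. The highest region of each gene reached a median percentile of 93.8 ± 0.667 for WT and 93.2 ± 0.13 for Pbrm1 cKO (mean ± SD of the library medians, n = 3 each). The same measure over the 13768 protein-coding genes was 88.0 ± 1.09 and 88.2 ± 0.427. Over the 78 mitochondrial ribosomal protein genes it was 92.3 ± 0.576 and 92.3 ± 0.898. With ranking by fold enrichment the cytosolic genes stood at 89.9, all protein-coding genes at 83.8 and the mitochondrial genes at 93.6, so the order of the cytosolic and mitochondrial sets turned. Over all 131 member regions the median percentile was 90.0 ± 0.358 in WT and 89.1 ± 0.585 in Pbrm1 cKO.

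**Figure D2:**
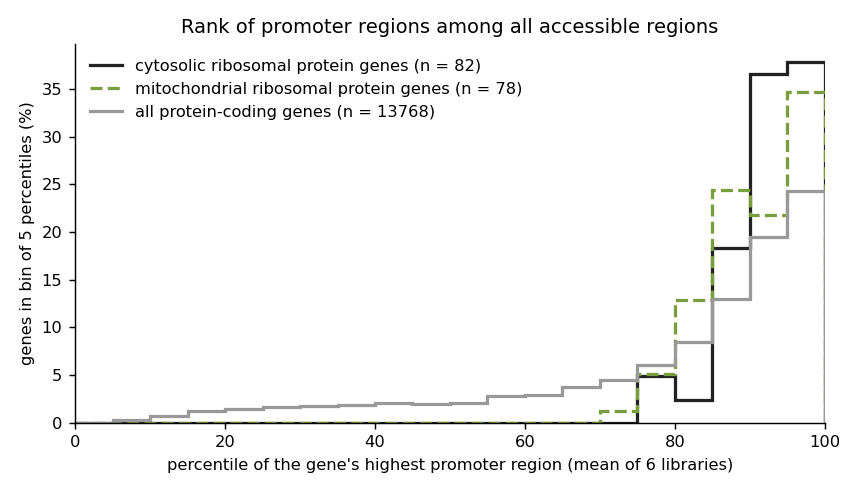
The plot shows the percentile of each gene's highest promoter region among the 66679 regions (mean of 6 libraries), as the percentage of genes in bins of 5 percentiles, for cytosolic ribosomal protein genes (n = 82), mitochondrial ribosomal protein genes (n = 78) and all protein-coding genes (n = 13768). In the top bin stand 31 of the 82 cytosolic genes (37.8%) and 24.2% of all protein-coding genes.

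Of the 82 members, 11 (13.4%) were among the 1000 highest genes, which hold 7.26% of the genes with a region, and 11 were in the lower part of the order of genes, below its midpoint. The small subunit genes had a median percentile of 94.6 over the libraries (n = 31) and those of the large subunit 92.5 (n = 46), a difference that was not tested. The 4 members on the X chromosome (Rpl10, Rpl36a, Rpl39 and Rps4x) had a median of 86.1 and the 78 on autosomes 93.9, beside 76.9 and 88.5 for all protein-coding genes on X and autosomes.

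Among the highest members were Rps12, Rps29, Rpl15, Rpl37 and Rpl30. Rps29, a small zinc-binding protein, held ranks 1469, 20 and 553 of 66679 in WT libraries 1, 2 and 3 and ranks 291, 97 and 317 in Pbrm1 cKO libraries 1, 2 and 3, so the WT libraries alone spanned the values of the other group. Rpl15, which lies in the core of the large subunit, held ranks 85, 437 and 418 in WT and 341, 86 and 328 in Pbrm1 cKO. Rpl37 held ranks 112, 1505 and 445 in WT and 267, 91 and 790 in Pbrm1 cKO, and Rpl30 held 557, 1141 and 293 in WT and 1412, 71 and 266 in Pbrm1 cKO. In both cases the groups overlapped widely. Neighbours in this order did not differ beyond the spread of their libraries.

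The lowest were Rps4x, Rpl23a, Rpl8, Rpl4, Rpl36 and Rpl7l1, which were all still above percentile 76. This order takes the highest region of each gene. At Rpl18 that region (percentile 91.9) lay at an upstream start. The region at the principal start of Rpl18 (chr7:45717855-45718207) stood at 76.3, below the 76.8 of Rps4x. Rps4x, the X-linked copy of a small subunit protein, held ranks 12360, 25315 and 12708 in WT and 14911.5, 12476.5 and 14915.5 in Pbrm1 cKO, with 29 to 50 tags over the summit. The highest region of Rpl4 held no start of that gene. Zwilch starts 271 bp away on the other strand, so the value may not be that of the Rpl4 promoter. This Rpl4 region held ranks 9380, 16087 and 24369 in WT and 8943, 13141.5 and 8108 in Pbrm1 cKO. The lowest of these ranks in WT was that of library 3, where 20 tags covered the summit. The scores of the 6 lowest members did not differ beyond their spread, while each of their libraries stood below each library of the 5 high members named above. By fold, Rpl23a and Rpl36 fell to percentiles 49.3 and 48.4, and Rpl8 to 62.5.

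**Figure D3:**
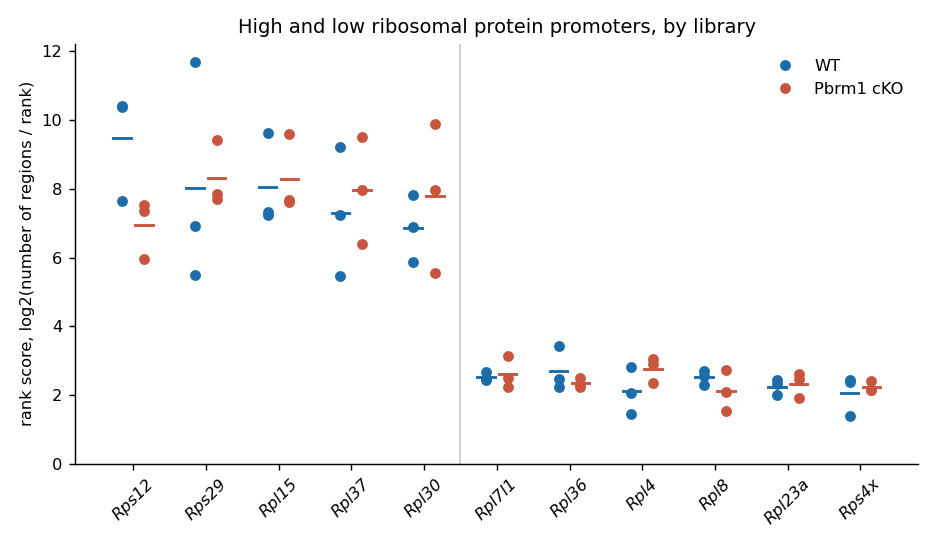
Points show the rank score, log2(66679 / rank), of the highest region of 5 of the highest and the 6 lowest members in each WT and each Pbrm1 cKO library, and short lines show the mean of 3 libraries. Rps12 is the single gene of the 11 whose groups do not overlap, and the points of the 5 high genes are spread more widely than those of the 6 low genes.

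Levels by role in the ribosome are given as percentiles of the highest region. The stalk proteins, which recruit translation factors, stood at 97.8 (Rplp0), 92.6 (Rplp1), 94.3 (Rplp2) and 88.9 (Rpl12). Those of the 5S particle, which also bind MDM2, stood at 90.8 (Rpl5) and 95.5 (Rpl11). For the peptide tunnel and its exit, 5 proteins were listed as examples. Their median was 86.2, which does not stand for all proteins there. Rpl17 stood at 92.1, Rpl35 at 92.1, Rpl39 at 86.2, Rpl23a at 79.2 and Rpl4, whose region held no Rpl4 start, at 80.0. At the decoding site and mRNA entry, Rps3 stood at 95.1, Rps23 at 95.1, Rps2 at 91.0 and Rps15 at 88.3. Of the genes mutated in Diamond-Blackfan anaemia, an inherited failure of red cell production, 19 were listed. They had a median of 94.8 and ranged from 88.4 (Rps15a) to 99.6 (Rpl15). Outside the choice by symbol, Fau, made as a fusion with a ubiquitin-like protein, stood at 89.0, and Rack1, a scaffold on the small subunit, at 95.5. Members that hold snoRNA genes in their introns numbered 30, with 58 snoRNAs, and their median percentile was 92.2 against 94.2 for the others.

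The comparison of Pbrm1 cKO with WT asked whether loss of a chromatin remodeller changes the standing of these promoters. No member region passed the threshold of limma across all regions (Benjamini-Hochberg adjusted p, 0.05) in either direction. Of all 66679 regions, 0.039% were called higher and 0.0285% lower in Pbrm1 cKO, and at either share a set of 131 would hold less than 1. At an unadjusted p under 0.05 there were 2 higher and 7 lower member regions, against 7.51% and 8.37% of all regions. On a scale of normal scores, 0 were higher and 1 was lower, against 0.993% and 1.33%. The region called lower, near Rpl34, was in the WT list alone, so its direction is tied to how it was chosen.

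The 3 Pbrm1 cKO libraries lay all above the 3 WT libraries at 5 member regions (3.82%, against 10.6% of all regions) and all below them at 11 (8.4%, against 10.9%). Over the regions at protein-coding promoters the shares were 6.09% above and 10.2% below, nearer to those of the members. The median difference in rank score over the 131 regions was −0.10, with 80 lower and 51 higher, beside a median of 0.0005 over all regions and −0.05 over the 18860 regions at protein-coding promoters, of which 54.3% were lower. At the highest region of each gene the median was −0.09, with 48 lower and 34 higher, and the middle of the values ran from −0.38 to 0.25 (lower to upper quartile). By fold the median over the 131 regions was −0.24, beside −0.03 over all regions and −0.10 over the regions at protein-coding promoters. In simulated data of the same size, 68.5% of changes of 4-fold in rank number were recovered. These changes were placed at higher-scoring regions only, with normally distributed noise of the spread typical at each score. In the real fit, differences of more than 4-fold did not pass at Eef1d (−2.40, adjusted p = 0.126 by limma) and Mrps33 (3.19, adjusted p = 0.152). Changes of 4-fold or more, as well as smaller ones, could thus pass unseen with 3 libraries a group.

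**Figure D4:**
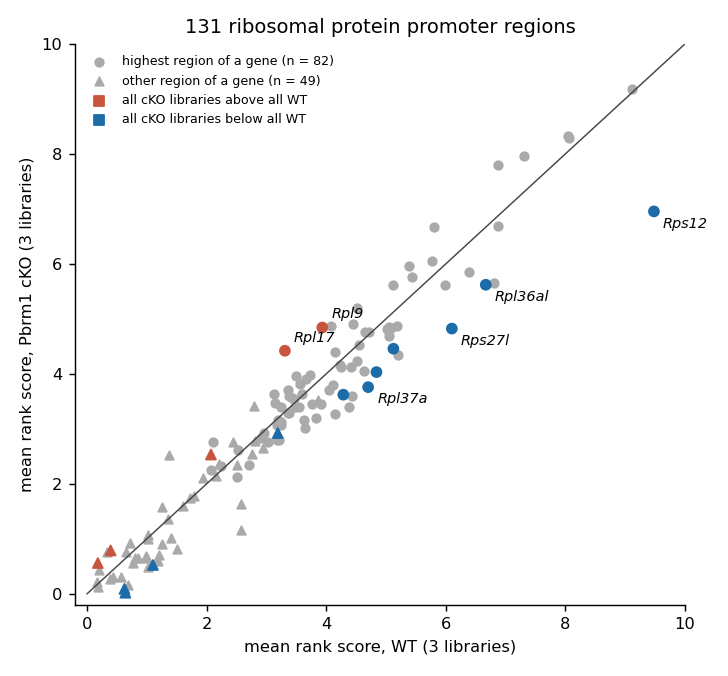
Each point is a member region, placed by its mean rank score over 3 WT libraries (horizontal) and over 3 Pbrm1 cKO libraries (vertical), with circles for the highest region of a gene and triangles for the others. Coloured points mark the 5 regions with all Pbrm1 cKO libraries above and the 11 with all below the WT libraries, and the line marks equal scores.

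Rps12, which lies in the small subunit head and in which 3 snoRNA genes sit, had the largest difference of the highest regions. Its ranks were 331, 49 and 50 in WT and 408, 358 and 1063 in Pbrm1 cKO. The groups did not overlap, and its rank score was lower by 2.53 in Pbrm1 cKO (difference −2.53 ± 1.24 SE; adjusted p = 0.328 by limma), a difference that did not pass the test. The tags over its summit were 150, 152 and 108 in WT and 158, 144 and 131 in Pbrm1 cKO. These numbers overlapped, but the libraries differ in depth. Divided by the library's median over the highest regions they were 1.508, 1.81 and 1.85 in WT and 1.505, 1.47 and 1.29 in Pbrm1 cKO, so the groups did not overlap, by a narrow margin between the first library of each. The fold enrichment at this summit was 19.1, 22.4 and 21.4 in WT and 21.7 and 22.3 in Pbrm1 cKO libraries 1 and 2, with library 3 within the WT range, so on that measure the groups overlapped.

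Of the other highest regions with the smallest p, Rpl17 and Rpl9, both large subunit proteins, stood higher in Pbrm1 cKO. Rpl17 scored 3.35, 3.09 and 3.49 in WT and 3.87, 5.77 and 3.61 in Pbrm1 cKO (difference 1.11 ± 0.50 SE, adjusted p = 0.294). The groups were apart by little in 2 of the 3 libraries, and the third, Pbrm1 cKO library 2, stood far above and without it the difference was 0.43 (adjusted p = 0.733). Rpl9, whose promoter also serves Lias, scored 3.98, 4.24 and 3.58 in WT and 5.24, 4.41 and 4.89 in Pbrm1 cKO (0.91 ± 0.45 SE, adjusted p = 0.329).

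Rps27l, a p53-responsive paralog of Rps27, and Rpl37a, a large subunit protein, stood lower. Rps27l scored 6.48, 5.23 and 6.59 in WT and 5.01, 4.62 and 4.84 in Pbrm1 cKO (−1.28 ± 0.57 SE, adjusted p = 0.284). Rpl37a scored 5.12, 4.67 and 4.31 in WT and 3.86, 3.68 and 3.73 in Pbrm1 cKO (−0.94 ± 0.43 SE, adjusted p = 0.292). Neither pair of groups overlapped, and neither difference passed the test. Also fully below WT were the highest regions of Rpl36al, Rps24, Rpl13 and Rpl7a. Rps24 and Rpl15 lie on chromosome 14, as does Pbrm1 itself at 31.02 Mb.

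**Figure D5:**
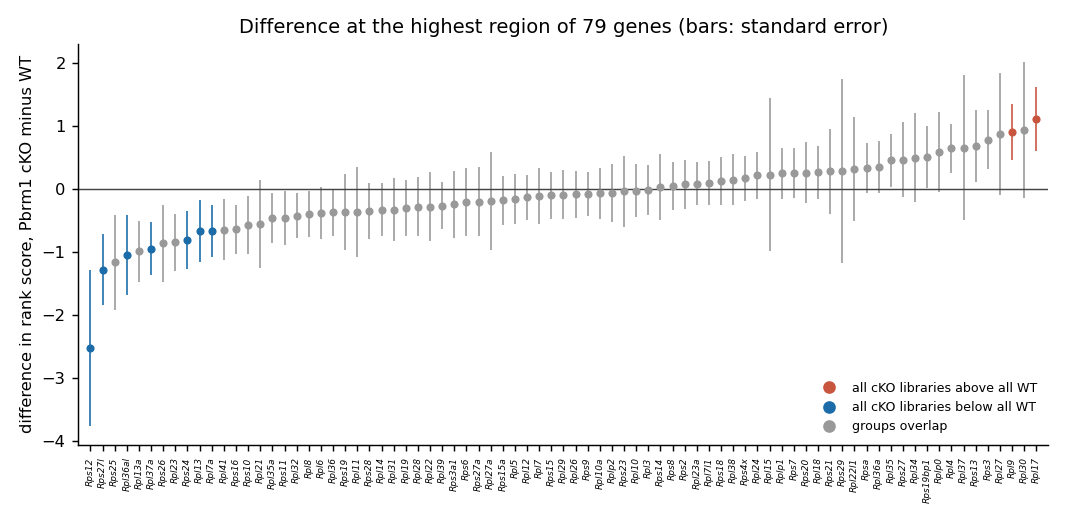
Points show the difference in rank score, Pbrm1 cKO minus WT, at the highest region of 79 genes in order of size, with bars for the standard error from limma (n = 3 libraries a group). The differences run from −2.53 at Rps12 to 1.11 at Rpl17, none passed the adjusted threshold, and the bars are widest at genes with the highest ranks such as Rps29 and Rpl15.

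The remaining small p-values belonged to lesser regions, each of 106 to 275 bp and holding no annotated start. The smallest was near Rpl34 (chr3:130729458-130729640), in the WT list alone, with scores of 0.58, 0.75 and 0.59 in WT and 0.01, 0.04 and 0.01 in Pbrm1 cKO. Its difference was −0.62 ± 0.14 SE (adjusted p = 0.0904 by limma), and with normal scores it passed (adjusted p = 0.00581). The region entered the set through the WT list alone, which was made from the same libraries. Its lower score in Pbrm1 cKO is thus tied to that choice, and neither p is independent support for a difference. WT summits there carried 30, 28 and 17 tags. Pbrm1 cKO library 1 had 14 tags and library 2 had 19, with no entry in library 3. This region lay 784 bp inside the gene, and the main Rpl34 promoter went the other way without passing the test (0.50 ± 0.70 SE, adjusted p = 0.786).

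Lesser regions beside Rps20 (−0.54 ± 0.21 SE, adjusted p = 0.233) and Rps27 (−0.54 ± 0.22 SE, adjusted p = 0.234) were also lower in score without passing. In the other direction were regions beside Rps7 (0.38 ± 0.16 SE, adjusted p = 0.273), Rpl3 (0.44 ± 0.24 SE, adjusted p = 0.382) and Rpl9 (0.39 ± 0.22 SE, adjusted p = 0.401). As given above, lesser regions near Rps20 and Rps27 were in the WT list alone. Lesser regions near Rps7, Rpl3 and Rpl9 were in the Pbrm1 cKO list alone. Where a region entered through the list of 1 genotype, its direction is tied to that choice and its p is no independent support.

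The other genes of translation were measured in the same fit. All 34 initiation factors of the list had a region, with a median percentile of 94.3, and 16 were higher and 18 lower in Pbrm1 cKO. All 11 elongation and termination factors had one, with a median of 95.4, and 5 were higher and 6 lower. All 36 ribosome biogenesis genes had one, with a median of 90.3, and 11 were higher and 25 lower. The median difference at their highest regions was −0.10, beside −0.09 at those of the ribosomal protein genes. A shift shared by the 2 sets was not tested. The 78 mitochondrial ribosomal protein genes were divided evenly, 39 higher and 39 lower. The highest region of none of these genes passed the threshold in either direction, in the same fit that called 0.0675% of all regions. Their lesser regions are not in this count.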

How the data were processed

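ATAC-seq peak lists of 6 libraries (3 WT, 3 Pbrm1 cKO) were used, grouped by their labels. Per the study's methods the authors ran the ENCODE ATAC-seq pipeline 1.9.0 on GRCm38 with MACS2. They deposited, for each library, a list relaxed to a p of 0.01 with at most 300000 entries, and for each genotype 1 conservative list from pooled reads at an irreproducible discovery rate of 0.05. Each entry holds the authors' fold enrichment (a ratio), −log10 p, in the relaxed lists −log10 q, and a rescaled score. The authors' DESeq2 comparison of read counts was not repeated, since peak lists hold no counts. Total depth is unknown, and p-values measure the spread between these libraries.

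The conservative lists were merged (overlap of at least 1 bp). Ranks came from the best −log10 p per library, and regions without an entry shared the lowest ranks. Testing used limma 3.58.1 (R 4.3.3; lmFit, eBayes with trend, Benjamini-Hochberg over 66679 regions, threshold 0.05) on the rank score, checked on simulated data. No pairing of the libraries by replicate number was seen in the ranks. Transcription starts came from GENCODE M21. Named were members without a region, the 6 highest and 6 lowest, the 6 smallest p in each direction, regions in 1 list, and examples of role lists written from general knowledge. Members and lists were chosen with earlier results of these data known. Alternatives are given in the closing section. Some members are not reported here by name, though counts and medians include them.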

Additional observations from a re-analysis of the deposited data

How the results depend on the processing

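Over the alternatives to the ranking, the filters, the libraries, the distance from a start and the members, 76 of 88 recomputed summaries stayed within 1.5 times the main count or within the spread of the libraries, and the other 12 moved. No alternative called a member region higher. Normal scores called 1 lower (the Rpl34 region that was in the WT list alone), against 0 in the others. Ranking by fold moved the median difference from −0.10 to −0.24 and the median percentile of the 131 regions from 89.5 to 80.6. That percentile was 87.3 within 3 kb of a start and 93.5 over the highest region of each gene. When only the higher-scoring regions were kept it was 83.5, but there it is a share of the kept regions alone. That value cannot be set beside the 89.5 over all regions. Regions whose groups do not overlap numbered 16 of 131 (12.2%, against 21.5% of all regions), and 9 of 82 over the highest regions alone (11.0%, against 13.7% of protein-coding genes). When 1 library was left out they numbered 22 to 35 (16.8% to 26.7%, against 30.0% to 34.4% of all regions), where 2 against 3 libraries separate more easily. The count was 35 without WT replicate 3, and over 1.5 times the main count without each library but Pbrm1 cKO replicate 2, and in each case the share was below that of all regions. Leaving out 1 library gave 0 calls throughout. The cause of these changes was not tested.

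With the replicate number as a block there were 0 higher and 0 lower member regions, and the median difference was −0.10. The deviations of same-numbered libraries correlated at −0.00289, −0.0549 and 0.00906, so no pairing by number was seen in the ranks. Whether same-numbered libraries were prepared together cannot be told from ranks. The block changed no call.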
